A study of Mus musculus with 10 samples.

Results

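The 35 genes described here are immediate early response genes, whose transcripts are known to rise within minutes to hours of a stimulus without new protein synthesis. They were taken as a list of symbols (Ccn1 is also called Cyr61) and matched by RefSeq accession to the 24160 rows of the expression table. Each symbol matched 1 row, and all 35 rows were among the 14611 with a mean of at least 1 normalized count (a gene's reads scaled by its library's size factor), the minimum for a test. Polyadenylated RNA from the left ventricle's posterior wall was sequenced in 6 libraries labelled MC4R-/-, from mice without the melanocortin 4 receptor, and 4 labelled WT. All 10 came from C57BL6/J mice bred from heterozygous pairs, aged 30 weeks and housed at 24 °C, and the hearts were frozen in liquid nitrogen after anaesthesia. The labels give no sex, no litter, no batch and no detail of the MC4R allele, and they do not say outright that each library is 1 animal, so p-values measure the spread between these libraries. The series title names a dilated cardiomyopathy, and the comparison asks which early response transcripts differed between the genotypes in ventricle.

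Immediate early genes are switched on by factors that are already present in the cell, such as serum response factor with its ternary complex partners and the cyclic AMP response element binding protein, which MAP kinase, calcium and cyclic AMP signals activate. Many of their products are transcription factors. Fos and Jun proteins pair through leucine zippers to form AP-1, and Egr, Klf and Nr4a proteins bind DNA through zinc fingers. Others end the response, as phosphatases that inactivate MAP kinases, inhibitors of JAK-STAT signalling and proteins that speed the decay of messenger RNA. In heart muscle several of them are known to respond to stretch, to adrenergic stimulation and to growth signals.

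The libraries held 4145033 (WT replicate 3) to 6425785 (WT replicate 4) reads assigned to genes. The ventricular cardiomyocyte markers Myh6, Myl2, Myl3, Tnni3, Tnnt2, Actc1, Ttn and Ryr2 summed to 406545 to 461017 normalized counts in the MC4R-/- libraries and 426039 to 474837 in the WT libraries. Of 7 lymphocyte markers the sum was 449.5 in WT replicate 2, against 10.5 to 22.3 in the MC4R-/- libraries and 10.6 to 27.9 in the other WT libraries, and Cd3g, Cd3e, Cd3d and Cd2 made up most of it. The 4 atrial markers Myl7, Myl4, Sln and Nppa summed to 3155 in MC4R-/- replicate 5, and elsewhere reached at most 1338, in WT replicate 4. Nppa alone gave 1332 in WT replicate 4, where Myl7 and Sln were at 0 and Myl4 at 6.16. Myl7 was 720 in MC4R-/- replicate 5, 134 in MC4R-/- replicate 6, 63.0 in MC4R-/- replicate 2 and 48.1 in WT replicate 1. In the remaining libraries it was at most 8.71. By mean log2 value, 6 of 6 fibroblast and 5 of 6 macrophage markers were higher in MC4R-/-. It was 5 of 8 for endothelial and 2 of 8 for ventricular cardiomyocyte markers. It was 2 of 6 for smooth muscle and pericyte and 0 of 5 for red blood cell markers. The fibroblast sum was 5426 to 6165 in MC4R-/- and 5574, 4669, 5147 and 5167 in WT replicates 1 to 4. The part of cell composition in the genotype comparison was not tested. The targeted gene Mc4r had 4 reads over the MC4R-/- libraries and 2 over the WT libraries, which is too few to check a label. In whole tissue, fewer cells of a type and less RNA per cell cannot be told apart.

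The genotypes differed in 2 of the 35 genes. Arc, which encodes a cytoskeleton-associated protein best known from synapses, rose in the MC4R-/- libraries, and Pim3, which encodes a serine/threonine kinase that promotes survival and growth, fell. The share called at an adjusted p under 0.05 (limma with Benjamini-Hochberg adjustment over all 14611 genes) was 5.71% of the members and 0.459% of all genes tested, with 1 member higher (0.287% of all genes) and 1 lower (0.171%). At an unadjusted p under 0.05 there were 10 members, or 28.6%, against 9.6% of all genes. Of these 10, 2 had a higher and 8 a lower mean in MC4R-/-, where 5.19% and 4.41% of all genes did. Among the 8, Pim3, Nr4a1, Btg2, Jund and Csrnp1 were highest in WT replicate 2, Nr4a3 and Jun in WT replicate 3 and Dusp1 in WT replicate 4. The members share these libraries and were chosen with earlier results known, so the share is a description. Over the whole list 13 members were higher by mean log2 value, where 48.4% of all genes were, and 22 were lower, or 20 without WT replicate 2 and 19 without MC4R-/- replicate 5 as well. The median log2 fold change of the members was -0.11, beside -0.01 over all genes tested, and it was -0.06 without WT replicate 2. Leaving out MC4R-/- replicate 5 as well gave -0.03. The libraries of the genotypes did not overlap for 3 members, or 8.57%, Arc on the higher side and Pim3 and Btg2 on the lower side, against 2.28% of all genes (1.34% on the higher side and 0.938% on the lower).

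Arc lies on chromosome 15 from 74669081 to 74672570 (GRCm38). Its normalized counts in the WT libraries were 23.1, 27.1, 20.8 and 17.6 in replicates 1 to 4. In the MC4R-/- libraries they ran from 31.3 to 54.8, with a median of 45.5, so the lowest of the 6 stood above the highest of the 4. The means were 44.6 ± 9.34 (SD, n = 6) and 22.1 ± 3.99 (SD, n = 4), and the log2 fold change 0.97 ± 0.20 (SE), with an adjusted p of 0.0184 in limma. These are 15 to 62 reads per library, and edgeR and DESeq2 on recovered reads, which called 0.342% and 0.835% of all genes, also called it (adjusted p = 0.036 and 0.00744). The call was lost in limma without its trend and robust steps, and without MC4R-/- replicates 1, 2 or 3 or WT replicates 3 or 4 (limma, adjusted p up to 0.0914), and without WT replicate 2 the log2 fold change was 1.07 (limma, adjusted p = 0.00734).

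Pim3 lies on chromosome 15 from 88862194 to 88865726 (GRCm38), where the RefSeq table also places a predicted gene, Gm33049, and no source used here gives the strand setting of the counting, so reads of the pair cannot be told apart. The same limit holds for Csrnp1, Egr2, Dusp6, Pim1, Sik1 and Nr4a2, which overlap predicted or noncoding genes in that table. Its normalized counts in WT replicates 1 to 4 were 646, 849, 695 and 658. In MC4R-/- they ran from 424 to 627, with a median of 524, and every one lay below the lowest WT library. The means were 518 ± 72.3 (SD, n = 6) and 712 ± 94.1 (SD, n = 4), and the log2 fold change -0.46 ± 0.10 (SE), with an adjusted p of 0.0321 in limma. WT replicate 2, the library with lymphocyte transcripts, was the highest. Without it the log2 fold change was -0.37 and the gene still passed (limma, adjusted p = 0.048), as it did by DESeq2 (adjusted p = 0.00396), while edgeR gave an adjusted p of 0.0515. Without MC4R-/- replicate 5 as well limma gave an adjusted p of 0.0524. The call was also lost with no filter on low values, in limma without its trend and robust steps, and without MC4R-/- replicates 1, 2, 3 or 4 or WT replicates 3 or 4 (limma, adjusted p up to 0.106). The related kinase Pim1 had 84.0 ± 10.1 against 91.5 ± 17.0 (limma, adjusted p = 0.858), and Sik1, a salt-inducible kinase that restrains the CRTC coactivators, had 153 ± 13.3 against 137 ± 12.0 (limma, adjusted p = 0.677).

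**Figure D1:**
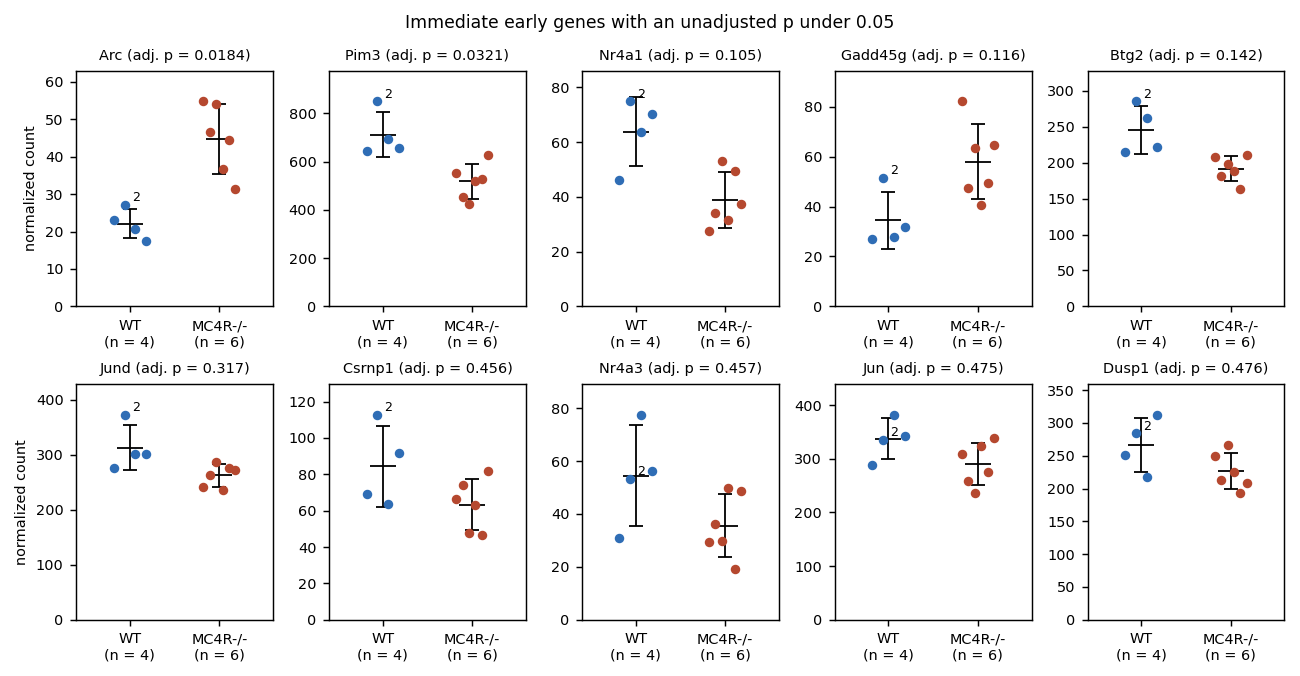
Normalized counts (vertical axis, linear, from 0) of the 10 members with an unadjusted p under 0.05, as 1 point per library, WT in blue and MC4R-/- in red, with the mean and SD as bars and WT replicate 2 marked with its number. The 6 MC4R-/- libraries of Arc lie at 31.3 to 54.8 and the 4 WT libraries at 17.6 to 27.1, while for 7 of the 8 genes with an adjusted p above 0.05 the points of the genotypes overlap.

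The Jun family supplies the AP-1 subunits that can pair with each other or with a Fos protein, and none of its 3 members passed the test. Jun had 289, 336, 382 and 342 normalized counts in WT replicates 1 to 4, and 236 to 338 with a median of 292 in MC4R-/-. The genotypes overlapped, and the log2 fold change was -0.22 ± 0.10 (SE; limma, adjusted p = 0.475). Jund, an AP-1 subunit that is present in resting cells, had 276, 373, 302 and 301 in WT and 236 to 287, median 267, in MC4R-/-, and the log2 fold change was -0.25 ± 0.09 (limma, adjusted p = 0.317). Only WT replicate 1 fell inside the MC4R-/- range, and WT replicate 2 was the highest. Junb had 63.5, 165, 42.9 and 65.2 in WT and 31.4 to 100.2, median 53.1, in MC4R-/-, so WT replicate 2 alone stood above the MC4R-/- range. Its log2 fold change was -0.45 ± 0.40 (limma, adjusted p = 0.788), and -0.06 without WT replicate 2.

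The Fos family pairs with Jun proteins and none of its 3 members passed the test. Fos had 4.81, 29.8, 2.77 and 18.5 normalized counts in WT and 6.08 to 20.9, median 9.96, in MC4R-/-. These are 2 to 33 reads per library, and the 4 WT libraries included both the highest and the lowest of the 10. The log2 fold change was 0.04 ± 0.53 (SE; limma, adjusted p = 0.993). Fosb had 0 to 5 reads in any library. Fosl2, which encodes Fra-2, averaged 162 ± 20.1 normalized counts in MC4R-/- and 148 ± 14.4 in WT (limma, adjusted p = 0.758).

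Atf3 and Maff encode leucine zipper factors, Atf3 a stress-induced member of the ATF/CREB family and Maff a small Maf protein, which lacks a transactivation domain. Atf3 had 16.4, 14.4, 41.5 and 19.4 in WT, and 16.2 to 49.8 with a median of 37.9 in MC4R-/-. WT replicate 3 lay among the higher MC4R-/- libraries and MC4R-/- replicate 5 among the lower WT ones, and the log2 fold change was 0.64 ± 0.33 (SE; limma, adjusted p = 0.569). Maff had 41.4, 31.6, 77.5 and 43.1 in WT and 31.4 to 52.9, median 46.8, in MC4R-/-, and the log2 fold change was -0.08 ± 0.21 (limma, adjusted p = 0.94). WT replicate 3 was the highest of the 10 libraries for Maff.

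Egr factors are zinc finger regulators that bind GC-rich sites, and Egr1 is the family member most studied in heart muscle. Egr1 had 72.2, 43.3, 51.2 and 97.7 in WT and 56.8 to 100.2, median 65.4, in MC4R-/-, with 37 to 115 reads per library. The MC4R-/- libraries overlapped the WT range almost throughout, and the log2 fold change was 0.11 ± 0.20 (SE; limma, adjusted p = 0.909). Egr2 (0 to 8 reads per library) and Egr3 (5 to 21 reads) were too low to show a difference of moderate size at this depth. The Klf factors Klf2, a flow-responsive factor of endothelium and a factor of resting T cells, Klf4 and Klf6 had log2 fold changes of -0.12, -0.05 and -0.15 (limma, adjusted p = 0.835, 0.922 and 0.647). Klf2 had 155, 262, 162 and 149 in WT and 139 to 184, median 165, in MC4R-/-, so that 3 of the 4 WT libraries lay within the MC4R-/- range.

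Nr4a1, Nr4a2 and Nr4a3 encode orphan nuclear receptors that act without a known physiological ligand. Nr4a1 had 46.2, 74.9, 63.7 and 70.4 in WT, and 27.4 to 53.1 with a median of 35.7 in MC4R-/-. WT replicate 1 was the only WT library inside the MC4R-/- range, and the log2 fold change was -0.72 ± 0.19 (SE), with an unadjusted p of 0.000875 in limma that did not pass over all genes (limma, adjusted p = 0.105, and 0.0542 to 0.281 when each library was left out). Nr4a3 had 30.8, 53.3, 77.5 and 56.3 in WT and 19.2 to 49.8, median 32.9, in MC4R-/- (log2 fold change -0.60 ± 0.26, limma, adjusted p = 0.457). All WT libraries except replicate 1 stood above the MC4R-/- range. Nr4a2 had 4 to 11 reads per library, and its log2 fold change was 0.12 ± 0.35 (limma, adjusted p = 0.955).

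Among the other nuclear regulators, Csrnp1, a cysteine- and serine-rich nuclear protein, had 69.3, 113, 63.7 and 91.6 in WT and 46.6 to 81.8, median 64.8, in MC4R-/- (log2 fold change -0.40 ± 0.18, limma, adjusted p = 0.456). WT replicates 2 and 4 were above all 6 MC4R-/- libraries. Ier2 averaged 51.4 ± 6.52 (SD, n = 6) against 59.9 ± 21.3 (SD, n = 4), Ier5 154 ± 8.22 against 178 ± 32.0 and the proto-oncogene Myc 22.1 ± 4.37 against 24.6 ± 8.90. The adjusted p-values of these 3 genes in limma were 0.821, 0.647 and 0.928. In each of them WT replicate 2 was the highest of the 10 libraries.

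The genes that restrain signalling gave no call. Dusp1, the phosphatase that inactivates p38 and JNK, had 251, 284, 217 and 313 in WT and 193 to 267, median 219, in MC4R-/- (log2 fold change -0.23 ± 0.11, limma, adjusted p = 0.476). WT replicates 2 and 4 stood above the MC4R-/- range. Dusp6, the phosphatase of ERK, averaged 103 ± 23.5 against 100.4 ± 18.7 (limma, adjusted p = 0.984). Socs3, which blocks JAK-STAT signalling, had 28.9, 37.0, 13.8 and 31.7 in WT and 16.5 to 47.0, median 30.3, in MC4R-/-, and all but WT replicate 3 lay inside the MC4R-/- range (limma, adjusted p = 0.892). Ier3 averaged 132 ± 16.4 in MC4R-/- and 145 ± 22.2 in WT (limma, adjusted p = 0.799).

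Zfp36 encodes tristetraprolin, which binds AU-rich elements and speeds messenger RNA decay, and Btg2 recruits deadenylase. Btg2 had 215, 285, 262 and 222 in WT, and 163 to 211 with a median of 193 in MC4R-/-. The genotypes did not overlap, with 211 and 215 as the nearest libraries, yet the log2 fold change of -0.35 ± 0.10 (SE) did not pass over all genes (limma, adjusted p = 0.142, and 0.305 without WT replicate 2). Zfp36 had 121, 308, 158 and 121 in WT and 108 to 169, median 131, in MC4R-/-. WT replicate 2 stood above the rest, and the log2 fold change of -0.29 ± 0.27 (SE; limma, adjusted p = 0.796) was 0.01 without it.

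The Gadd45 proteins bind stress kinases and cell cycle proteins. Gadd45g had 26.9, 51.5, 27.7 and 31.7 in WT and 40.7 to 82.2, median 56.6, in MC4R-/-. WT replicate 2 was the only WT library inside the MC4R-/- range. The log2 fold change was 0.75 ± 0.20 (SE; limma, adjusted p = 0.116), and without WT replicate 2 it was 0.95 and passed (limma, adjusted p = 0.0109), in a fit that called 0.803% of all genes. With library weights, which kept all 10 libraries, the log2 fold change of Gadd45g was 0.86 and it also passed, in a fit that called 118 genes. Without WT replicate 2, 3 members passed, Arc, Pim3 and Gadd45g, and without MC4R-/- replicate 5 as well 2 passed, Arc and Gadd45g. Gadd45b averaged 49.7 ± 13.0 against 53.3 ± 4.78 (limma, adjusted p = 0.867). Of the remaining effectors, the matricellular protein gene Ccn1 averaged 350.0 ± 63.5 against 316 ± 8.97, and the small GTPase gene Rhob 707 ± 35.5 against 737 ± 79.1 (limma, adjusted p = 0.752 and 0.874).

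**Figure D2:**
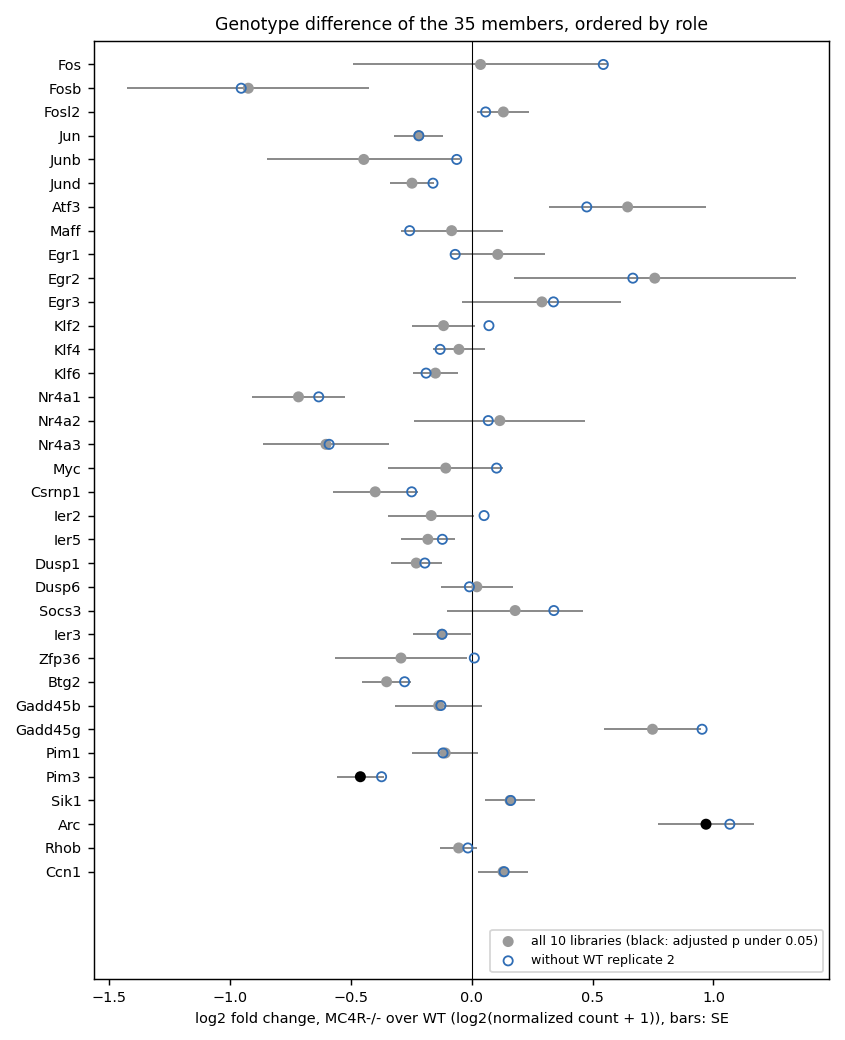
Log2 fold change of each of the 35 members (horizontal axis, MC4R-/- over WT, on the log2(normalized count + 1) scale) with its SE, ordered by role from the Fos family down to the effectors. Filled points use all 10 libraries and are black for Arc (0.97) and Pim3 (-0.46), the 2 members past the threshold, and open blue points leave out WT replicate 2, which moves Fos from 0.04 to 0.54 and Junb from -0.45 to -0.06.

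By library, the members were highest in WT replicate 2 and lowest in MC4R-/- replicate 5. The mean deviation from the 10-library mean, over the 35 members on the log2 scale, was 0.21 in WT replicate 2 and -0.28 in MC4R-/- replicate 5, and between -0.11 and 0.07 in the other 8 libraries. The medians stood less apart, at 0.15 in WT replicate 2 and -0.15 in MC4R-/- replicate 5, and between -0.10 and 0.12 in the other 8. The low genes Fosb and Egr2 were at 0 in MC4R-/- replicate 5, which lowers its mean. In MC4R-/- replicate 5, the library with the highest atrial marker sum, 29 of 35 members lay below their mean. WT replicate 2 held the highest value of 12 members. They were Fos, Junb, Jund, Klf2, Nr4a1, Myc, Csrnp1, Ier2, Ier5, Zfp36, Btg2 and Pim3. WT replicate 3, the library with the fewest reads, held the highest value of 9 others, namely Maff, Klf4, Klf6, Nr4a2, Nr4a3, Jun, Fosb, Ier3 and Rhob. The part of the lymphocyte and atrial transcripts in these levels was not tested.

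**Figure D3:**
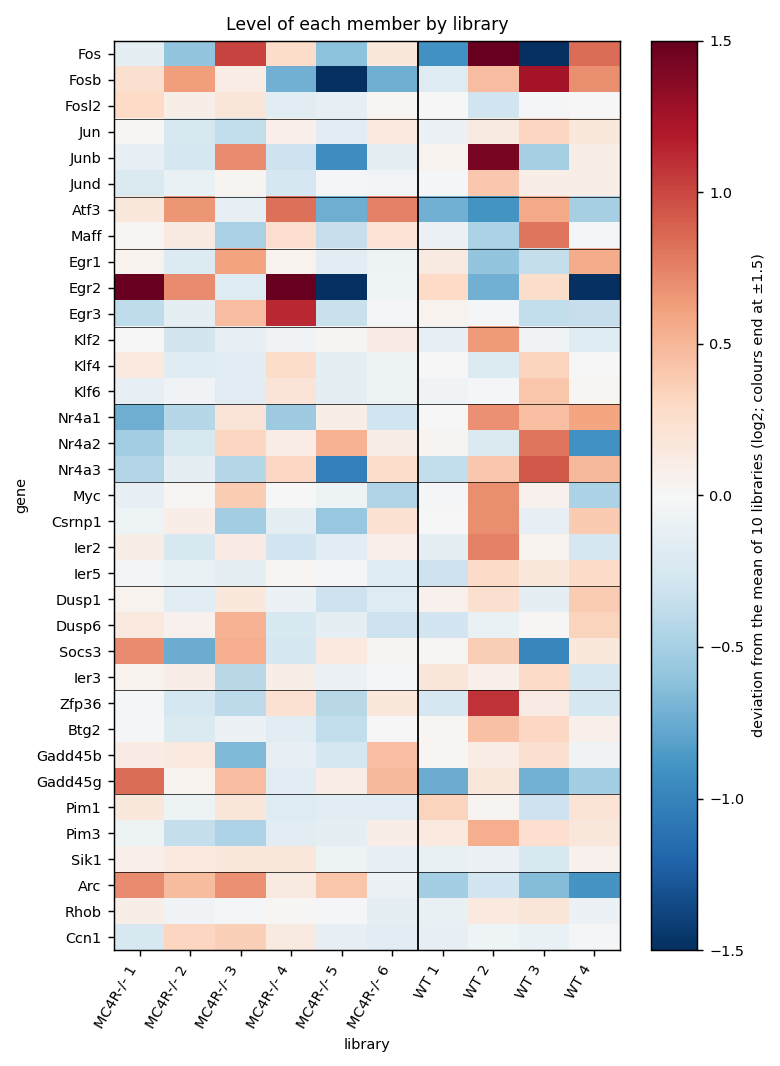
Deviation of each member (rows, by role) from its mean over the 10 libraries (columns, MC4R-/- left of the line and WT right of it), on the log2(normalized count + 1) scale, red above and blue below the mean, with colours ending at ±1.5. In WT replicate 2 the rows of Fos, Junb, Zfp36, Ier2 and Klf2 are red while Egr1 and Atf3 are blue, and in WT replicate 3 Fos and Socs3 are blue while Maff and Nr4a3 are red.

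The members varied more between libraries of the same genotype than the typical gene. Among the 30 members with a mean of at least 20 normalized counts, the median SD within genotype was 0.27 on the log2 scale, beside 0.17 for the 11033 genes with such a mean, and 25 of the 30 lay above that value. The widest were Junb (0.65), Atf3 (0.63), Socs3 (0.56), Nr4a3 (0.52), Zfp36 (0.45) and Maff (0.41), and the narrowest was Rhob (0.11). Fos, below that mean, varied more than any of these. Counting error adds to the SD of the low genes, and the 11033 genes were not matched to the members by level. The part of level in this difference was not tested.

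The members did not move as 1 block. Over the 595 pairs, the median Pearson correlation of deviations from the genotype mean was 0.11 (quartiles -0.20 and 0.37), beside 0.00 over all pairs of tested genes (quartiles -0.28 and 0.28). It was 0.06 without WT replicate 2. The share of pairs with r above 0.7 was 4.54% for members and 2.49% for all genes, and with r under -0.7 it was 1.51% and 2.38%. All pairs share the 10 libraries, so they are not independent.

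A single pair, Nr4a1 with Jund, passed the adjustment over the 595 pairs, and it is named here because it was the only one. Over the 10 libraries Pearson's r was 0.90 (permutation p = 5e-05, adjusted p = 0.0297) and Spearman's rho 0.98 (permutation p = 4e-05, adjusted p = 0.0238). Without the 2 libraries farthest from the median of Nr4a1, MC4R-/- replicate 1 and WT replicate 2, r was 0.92. These values were computed without subtracting the genotype means, and both genes had a lower mean log2 value in MC4R-/-. The p-values thus take in the genotype difference. Within genotype r was 0.80, with no p computed, and among the 6 MC4R-/- libraries alone 0.90. Of the 595 pairs 57 had an unadjusted permutation p of r under 0.05.

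Atf3 and Maff had the highest correlation within genotype among members with a mean of at least 20, at 0.91. MC4R-/- replicates 2, 4 and 6 and WT replicate 3 were high in both genes, and WT replicate 2 and MC4R-/- replicate 5 were low in both, while MC4R-/- replicate 3 was the lowest in Maff alone. Over the 10 libraries r was 0.73 (permutation p = 0.0137, adjusted p = 0.43) and rho 0.81 (permutation p = 0.00745, adjusted p = 0.646), and r was 0.66 without the 2 farthest libraries. Nr4a3, Klf4 and Klf6 varied with them, a set picked after the values were seen. Its 10 pairs had correlations within genotype of 0.47 to 0.91, and 0.26 to 0.86 without WT replicate 3.

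A second set picked in the same way, Klf2, Ier2, Zfp36, Btg2 and Pim3, had correlations within genotype of 0.55 to 0.87, and these rested in large part on WT replicate 2. Without that library the median over the 10 pairs dropped from 0.77 to 0.45. Ier2 and Klf2 had r = 0.88 over the 10 libraries (permutation p = 0.00972, adjusted p = 0.43) and rho = 0.58 (permutation p = 0.0877, adjusted p = 0.741). Without the 2 libraries farthest from the median of Ier2, WT replicate 2 and MC4R-/- replicate 4, r was 0.56. Zfp36 and Klf2 had r = 0.87 (permutation p = 0.0124, adjusted p = 0.43) and rho = 0.49 (permutation p = 0.157, adjusted p = 0.819), and r = 0.49 without the 2 farthest libraries. Between the 2 sets the median correlation was 0.04.

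For Fos and Egr1, often used together to report early gene induction, a single library moved the correlation. Over the 10 libraries r was 0.26 (permutation p = 0.462, adjusted p = 0.792) and rho 0.22 (permutation p = 0.538, adjusted p = 0.881). WT replicate 2 was the highest library for Fos, with 29.8 normalized counts, and the lowest for Egr1, with 43.3. Without the 2 libraries farthest from the median, WT replicate 2 and MC4R-/- replicate 3, r was 0.77, and within genotype without WT replicate 2 alone it was 0.93. That value was computed after WT replicate 2 was seen to stand apart.

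Among members with a mean of at least 20, the most opposed pairs were Klf6 with Pim1 (r = -0.79 within genotype), Maff with Socs3 (-0.76) and Klf6 with Socs3 (-0.75). Over the 10 libraries Klf6 and Pim1 had r = -0.57 (permutation p = 0.0797, adjusted p = 0.519) and rho = -0.38 (permutation p = 0.278, adjusted p = 0.82), and r was 0.14 without MC4R-/- replicate 4 and WT replicate 3, so the relation rested on those libraries. Maff and Socs3 had r = -0.76 (permutation p = 0.0104, adjusted p = 0.43) and rho = -0.70 (permutation p = 0.0306, adjusted p = 0.741), and r = -0.53 without the 2 farthest. Klf6 and Socs3 had r = -0.74 (permutation p = 0.0168, adjusted p = 0.43) and rho = -0.61 (permutation p = 0.0668, adjusted p = 0.741), and r = -0.40 without the 2 farthest. In these last pairs WT replicate 3 was the lowest library of Socs3 and the highest of Maff and Klf6.

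**Figure D4:**
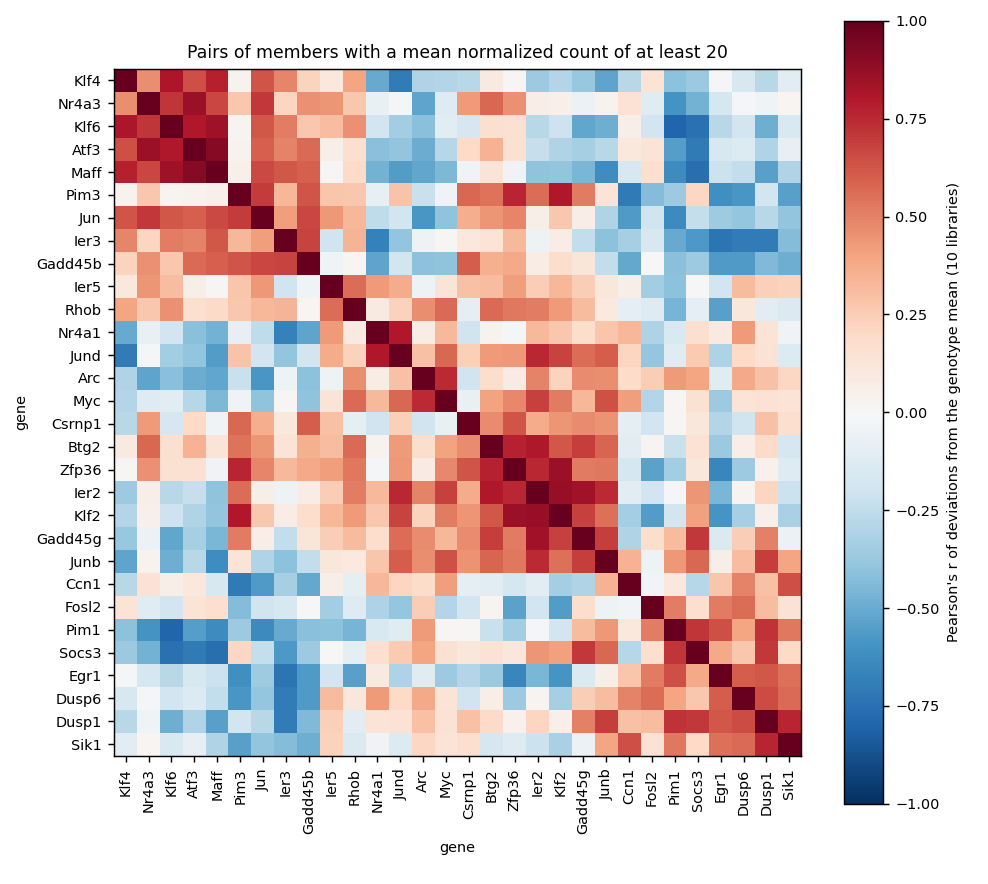
Pearson correlation of deviations from the genotype mean over the 10 libraries, for each pair of the 30 members with a mean of at least 20 normalized counts, red positive and blue negative, genes ordered by similarity. Atf3, Maff, Nr4a3, Klf4 and Klf6 form a red square at 1 corner (0.47 to 0.91), and Klf2, Ier2, Zfp36 and Btg2 another in the middle. With Pim3 counted in the second set, correlations between the 2 sets run from -0.41 to 0.58.

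**Figure D5:**
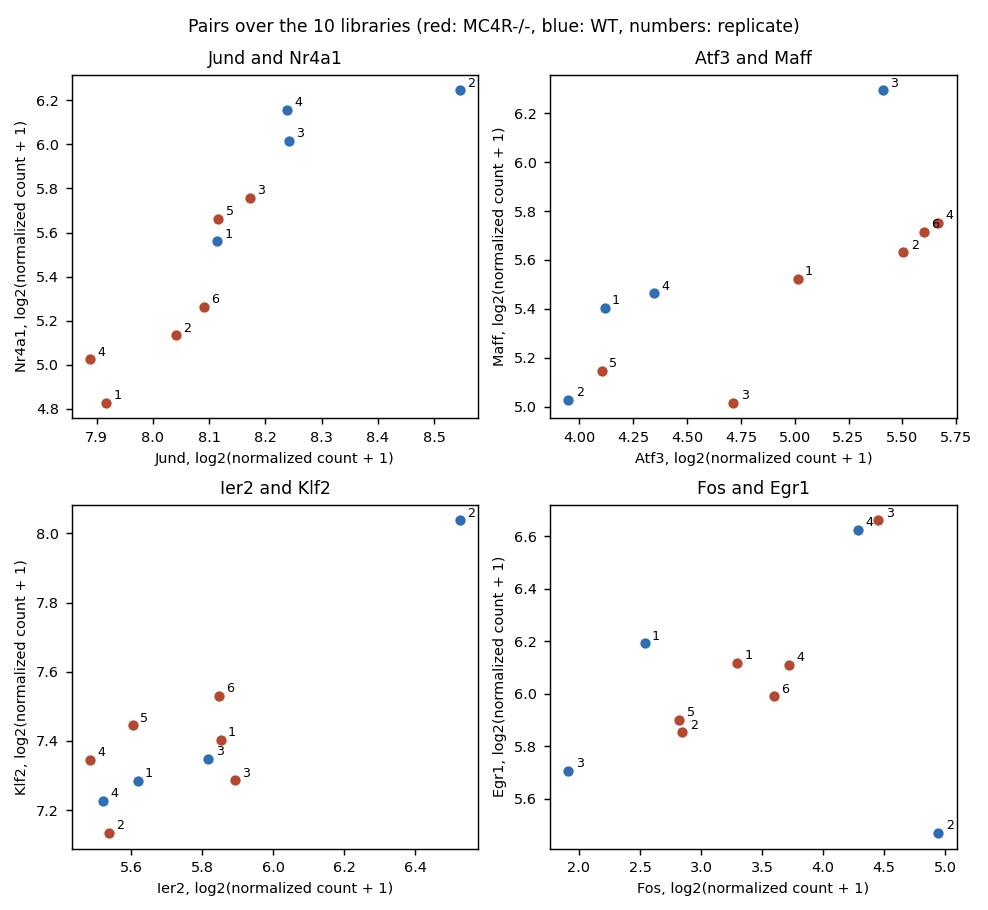
Log2(normalized count + 1) of 4 pairs of members, 1 point per library, MC4R-/- in red and WT in blue, numbered by replicate. Jund and Nr4a1 (r = 0.90) and Atf3 and Maff (r = 0.73) rise together across libraries, Ier2 and Klf2 (r = 0.88) rest on WT replicate 2 at the upper right, and Fos and Egr1 (r = 0.26) rise together apart from WT replicate 2 at the lower right.

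The promoters of 5 members that carry these comparisons are shown because Atf3 with Maff and Klf2 with Zfp36 were among the 3 pairs with the highest correlation within genotype at a mean of at least 20, and Pim3 was called. Ier2, which formed the other of these pairs with Klf2, and Arc, which was also called, are not shown. Each run is the 250 bases before the transcription start, 5′ to 3′ on the gene's strand, from RefSeq (GRCm38.p6). Atf3 is at chr1:191183334-191183583 on the minus strand, Maff at chr15:79347270-79347519 on the plus strand (the window with most matches of 3 for this gene), Klf2 at chr8:72318812-72319061 on the plus strand, Zfp36 at chr7:28379229-28379478 on the minus strand and Pim3 at chr15:88861944-88862193 on the plus strand. Capitals mark matches, on either strand, to TGACGTCA (the cyclic AMP response element), its first bases TGACG, GCGNGGGCG (the site Egr factors bind) and the CArG box (the site of serum response factor).
Atf3: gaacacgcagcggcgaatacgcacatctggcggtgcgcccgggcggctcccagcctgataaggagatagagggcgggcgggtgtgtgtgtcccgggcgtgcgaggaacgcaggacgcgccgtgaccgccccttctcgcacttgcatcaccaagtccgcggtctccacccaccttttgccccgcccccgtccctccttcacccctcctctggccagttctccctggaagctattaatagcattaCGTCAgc
Maff: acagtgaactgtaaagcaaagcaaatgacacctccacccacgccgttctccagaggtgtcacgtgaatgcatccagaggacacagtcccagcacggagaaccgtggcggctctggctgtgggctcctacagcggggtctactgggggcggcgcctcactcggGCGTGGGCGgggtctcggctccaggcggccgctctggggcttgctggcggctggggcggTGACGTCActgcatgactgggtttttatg
Klf2: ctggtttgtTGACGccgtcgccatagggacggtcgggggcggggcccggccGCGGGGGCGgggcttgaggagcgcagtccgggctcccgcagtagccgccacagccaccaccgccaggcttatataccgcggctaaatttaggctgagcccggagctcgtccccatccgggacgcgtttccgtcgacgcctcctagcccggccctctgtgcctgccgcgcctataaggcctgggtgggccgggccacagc
Zfp36: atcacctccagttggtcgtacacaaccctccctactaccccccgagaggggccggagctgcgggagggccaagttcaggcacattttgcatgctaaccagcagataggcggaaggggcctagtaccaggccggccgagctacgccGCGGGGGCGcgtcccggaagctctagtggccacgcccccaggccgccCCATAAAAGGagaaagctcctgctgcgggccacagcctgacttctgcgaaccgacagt
Pim3: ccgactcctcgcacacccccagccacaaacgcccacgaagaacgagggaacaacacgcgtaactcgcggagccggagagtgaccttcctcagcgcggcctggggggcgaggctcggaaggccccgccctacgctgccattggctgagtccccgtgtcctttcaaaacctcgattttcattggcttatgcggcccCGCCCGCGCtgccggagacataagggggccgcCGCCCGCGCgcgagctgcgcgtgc

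In the Maff window the full TGACGTCA lay 29 bases before the start, and in the Atf3 window a TGACG on the other strand lay 7 bases before it. The Zfp36 window held a CArG box 58 bases before the start, and the Pim3 window held GCGNGGGCG on the other strand at 56 and 24 bases. Within the pairs, Atf3 and Maff both held TGACG, and Klf2 and Zfp36 both held GCGNGGGCG. Maff also held GCGNGGGCG and Klf2 also held TGACG, so neither match set the pairs apart.

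Of the 35 members 29 had a RefSeq promoter, in 39 windows of 300 bases (250 before and 50 after a start), and these were set beside all 32851 windows of the table, searched on both strands. TGACG was in 53.8% of the member windows and 20.8% of all windows, and the full TGACGTCA, which contains it, in 7.69% (Btg2, Dusp1 and Maff) and 1.79%. GCGNGGGCG was in 30.8% of member windows and 5.55% of all windows. The CArG box was in 12.8%, all of them windows of Egr2 and Zfp36, against 1.63%. TGANTCA, the AP-1 site, was in 2.56% (a window of Csrnp1) against 7.81%, and TATAAA in 15.4% against 13.6%. The median GC content was 63.0% for the member windows and 52.7% for all windows, a difference that bears on GC-rich motifs, and its part was not tested. Some members have several windows, so windows are not independent.

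Levels of different genes were compared only per kilobase of their longest matched transcript, as normalized counts per kilobase averaged over the 10 libraries. Rhob (306), Pim3 (245), Jund (169), Ccn1 (167), Dusp1 (122) and Ier3 (121) were the highest, and Fosb (0.755), Egr2 (1.03), Nr4a2 (2.23), Egr3 (2.50) and Fos (5.75) the lowest. Jun stood at 96.9, Egr1 at 22.4 and Arc at 11.7 on this scale. Of the called genes, Arc was thus among the low members and Pim3 among the high ones.

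Of 40 other early response genes outside the 35, 38 were tested, and 0 passed by limma, with 8 (21.1%) at an unadjusted p under 0.05, 4 higher and 4 lower, against 9.6% of all genes. The median log2 fold change was -0.08. By edgeR 1 of them passed, by DESeq2 4 and by limma without WT replicate 2 1, where these fits called 0.342%, 0.835% and 0.803% of all genes. Rcan1, an inhibitor of calcineurin, had 795 ± 162 against 572 ± 54.7, and Cish, a target and inhibitor of STAT5 signalling, 349 ± 82.1 against 528 ± 80.8 (limma, adjusted p = 0.17 and 0.191). Both were among the genes that DESeq2 called.

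Some factors act before the early genes. Of 33 upstream factors, among them Srf, the Elk factors, Creb1, the CRTC coactivators, Mef2 factors and MAP kinases, 0 passed by limma, edgeR or DESeq2, 1 had an unadjusted p under 0.05 (3.03%), and the median log2 fold change was 0.03. That gene was Mknk2, a kinase that ERK and p38 activate, with 1611 ± 165 against 1828 ± 183 normalized counts (limma, adjusted p = 0.437). The next smallest p-values were those of Mef2c (468 ± 31 against 421 ± 39.3, limma, adjusted p = 0.562) and Crebbp (147 ± 20.2 against 167 ± 11.6, limma, adjusted p = 0.632). Of 24 feedback inhibitors of MAP kinase and JAK-STAT signalling 0 passed by any of the 3 tools and 2 had an unadjusted p under 0.05. They were Dusp3 (1117 ± 89.5 against 973 ± 55.3, limma, adjusted p = 0.311) and Errfi1 (115 ± 21.1 against 148 ± 32.2, limma, adjusted p = 0.391). Dusp8 came next (350.1 ± 43.3 against 306 ± 49.4, limma, adjusted p = 0.553). Of 16 further AP-1 and small Maf partners 15 were tested, and 0 passed by the 3 tools and 1 by limma without WT replicate 2. An unadjusted p under 0.05 was found for 4 (26.7%, against 9.6% of all genes). Among them were Bach1 (252 ± 28.3 against 305 ± 27.4, limma, adjusted p = 0.255) and Nfe2l1 (5275 ± 239.6 against 4759 ± 158, limma, adjusted p = 0.354). Batf2 was another (6.31 ± 2.69 against 2.75 ± 1.99, limma, adjusted p = 0.416), a low gene at 0 in WT replicate 3.

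The genes outside the list that varied most like Fos within genotype, of 11003 with a mean of at least 20, were Smad7 (r = 0.97), Rpl37 (0.97), Rbfa (0.95), Aph1a (0.94) and Rapgef1 (0.94). In all, 20 genes had r above 0.9. Smad7, an inhibitor of TGF-beta signalling, ran from 66.5 normalized counts in WT replicate 3 to 154 in WT replicate 2, the same libraries that were lowest and highest for Fos. Fos was highest in WT replicate 2 (29.8), MC4R-/- replicate 3 (20.9) and WT replicate 4 (18.5). These libraries had the most reads, at 6404186, 6408864 and 6425785, and WT replicate 3 had the fewest, at 4145033. The part of sequencing depth in these correlations was not tested. With 10 libraries and so many genes such correlations are a description only.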

How the data were processed

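Per the labels' protocols, stranded poly(A) libraries were made from 200 ng of total RNA (integrity number above 7). The build mm10 and, among other tools, Cuffnorm 2.2.1.1, Cuffdiff 2.2.1.3, Cufflinks 2.2.1, TopHat2 2.1.0 and Bowtie2 stand in the submitters' processing notes. No source used here gives the annotation or the strand setting. The deposited table holds signal values from the authors, which are reads per gene over a library's size factor: 99.99 to 100% of the values above 0 came to whole reads (tolerance 0.1). Of 24160 rows, 23984 matched a symbol in RefSeq (GRCm38.p6). Genotype was compared with limma 3.58.1 (R 4.3.3; with a trend, robust) after taking log2(normalized count + 1), in 1 fit of all 10 libraries, at a mean of at least 1, two-sided, with Benjamini-Hochberg adjustment over 14611 genes and a threshold of 0.05. This scale understates changes of low genes. Errors are SDs between libraries, or SEs of log2 fold changes.

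P-values of correlations came from 100000 permutations without subtracting genotype means, two-sided, adjusted over 595 pairs. Libraries of 1 group differed by 2.55 to 7.86 in chi-square per degree of freedom, more than counting error gives, and each was counted as 1 sample. Alternatives were edgeR 4.0.16 and DESeq2 1.42.0 on recovered reads, other pseudocounts, filters, scalings and weights, a replicate block and leaving out libraries. The limma procedure was tested on simulated data. Transcript lengths came from GENCODE M21. Members, lists and roles were chosen with earlier results of these data known. Values per library were given for members past the threshold or with an unadjusted p under 0.05, the 6 widest of mean at least 20, and Fos, Jun and Egr1, with Klf2 added after its values were seen. Named pairs were the 3 highest and 3 lowest correlations at that mean and Fos with Egr1. Each other list gave its 3 smallest p-values, except that some results are not reported here.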

Additional observations from a re-analysis of the deposited data

Results flagged for a closer look

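In 76 groups of 4 or 6 libraries the highest or lowest library was compared with its neighbours, and 9 lay far from the rest of their group, where chance alone gives about 1 in 20. The groups reuse the same libraries and are not independent, so the count of flags is a description only. Among the members these were Klf6 in MC4R-/- replicate 4 (497 normalized counts) and in WT replicate 3 (579), Fosl2 in WT replicate 2 (126, the lowest of its group), Klf2 in WT replicate 2 (262), and Junb and Egr1 in MC4R-/- replicate 3 (100.2 each). The mean deviation of the 35 members was -0.28 in MC4R-/- replicate 5, far below the other MC4R-/- libraries. By the median it was -0.15, nearer to the -0.10 of MC4R-/- replicate 2. The lymphocyte marker sum of 449.5 in WT replicate 2 and the atrial marker sum of 3155 in MC4R-/- replicate 5 also stood apart from their groups.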

How the results depend on the processing

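Of the 35 members 2 were called, and this count was 1 without the filter on low values and 1 by edgeR. It was 0 by limma without its trend and robust steps, and 3 with library weights, Arc, Pim3 and Gadd45g. When each library was left out in turn it was 0 to 3. It was 0 without MC4R-/- replicates 1, 2 or 3 or WT replicates 3 or 4. Of all genes tested 67 were called, 0 without the trend and robust steps, 118 with library weights, 122 by DESeq2, 50 by edgeR, 168 without WT replicate 2 and MC4R-/- replicate 5, and 26 to 117 when each library was left out. The replicate block (52 genes over replicates 1 to 4 of each group, 2 members) changed no call among the members. Same-numbered libraries of the genotypes had correlations of deviations from -0.06 to -0.003, and 0 of 4 correlated best with its own number. Over replicates 1 to 4 the highest correlation was 0.14, of MC4R-/- replicate 4 with WT replicate 3. The numbers thus gave no sign of pairing, but these values cannot exclude libraries that shared a litter or a batch. The median log2 fold change of the members was -0.0262 without WT replicate 2 and MC4R-/- replicate 5, and -0.15 to -0.06 when each library was left out.

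Some members changed sign in log2 fold change. Without both libraries Junb was at 0.089, Zfp36 at 0.069, Ier2 at 0.0705, Klf2 at 0.0533, Egr1 at -0.0278, Myc at 0.109 and Nr4a2 at -0.0262. With library weights Rhob was at 0.00238, Egr1 at -0.0866, Myc at 0.0482 and Fos at -0.022. Fos was at -0.00187 with a pseudocount of 2 and -0.40 by edgeR, and under the replicate block Myc was at 0.00249 and Nr4a2 at -0.0148. With each library left out the ranges that cross 0 were -0.438 to 0.0102 for Zfp36, -0.285 to 0.0506 for Ier2, -0.20 to 0.0708 for Klf2, -0.113 to 0.342 for Socs3, -0.0688 to 0.316 for Egr1, -0.131 to 0.0491 for Klf4, -0.289 to 0.102 for Myc, -0.257 to 0.166 for Maff, -0.164 to 0.408 for Nr4a2, -0.0829 to 0.134 for Dusp6 and -0.466 to 0.544 for Fos. The cause was not tested. The median pair correlation of 0.11 ranged from 0.06 to 0.11 when each library was left out. Fos, Fosb, Egr2, Egr3 and Nr4a2 had at most 33 reads in a library, which limits what their values can show.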
